A study of Mus musculus with 16 samples.

Results

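Pou5f1 (which encodes OCT4), Sox2 and Nanog are the 3 core pluripotency loci described here, followed by ATAC-seq through a chemical reprogramming of mouse fibroblasts. ATAC-seq cuts open chromatin with the Tn5 transposase, so that a peak marks DNA that was accessible in the sampled cells. Every called peak that overlapped the RefSeq span of a member gene, extended by 120 kb on either side, was taken from 8 stage lists. Overlapping peaks of the lists were merged into regions: 94 regions fell in the 3 windows, of 165616 in the whole series, with 27 around Pou5f1, 26 around Sox2 and 41 around Nanog. In mm10 coordinates Pou5f1 lies at chr17:35506032-35510777, Sox2 at chr3:34649995-34652461 and Nanog at chr6:122707489-122714633, all on the plus strand. A region is called here by its gene and the distance of its midpoint from the start of that gene.

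The stages were D0 fibroblasts (MEF), reprogramming intermediates of D2, D4, D6, D8, D10 and D12, and established iPSC, where D counts days. All cells came from E13.5 embryos labelled 129XOG2. OG2 mice are known to carry a transgene in which a genomic fragment of Pou5f1, without its proximal enhancer, drives GFP, and every group, fibroblasts included, shares that background. MEF at passages 1 to 3 were switched to a reprogramming medium whose compounds the labels do not list, and no factor vector is named. The iPSC were kept on feeder cells in N2B27-type medium with mLIF, CHIR99021 and PD0325901, and no source used here gives the share of feeder cells among the sequenced nuclei. The labels give 2 samples per stage, 16 in all, but the deposited tables hold 1 peak list per stage. No spread between samples can be had from them, so no test was made and no difference below has a replicate check.

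OCT4 and SOX2 are transcription factors that bind DNA side by side at composite octamer-Sox elements, and NANOG is a homeodomain factor that works with them in the inner cell mass and in embryonic stem cells. The 3 proteins occupy enhancers of their own genes, which closes a positive feedback loop. In mouse embryonic stem cells Pou5f1 is known to be driven from a distal enhancer in the naive state and from a proximal enhancer in the primed epiblast, both just upstream of its promoter. Sox2 is known to depend on a distant downstream cluster of enhancers, the Sox2 control region, and Nanog on enhancers on both sides of the gene. In fibroblasts the 3 genes are normally silent.

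The RefSeq promoters of the 3 genes (GRCm38.p6, 250 bases before to 50 after the start, plus strand) are shown because the called peaks reached them at different stages. Capitals mark matches on either strand to an octamer core (ATGCAAA), an octamer-Sox composite (CATTGT, any base, then ATGCAAA), an ESRRB half-site (TCAAGG), a KLF site (GGGNGTGG) or a GC box (GGGCGG).
Pou5f1, chr17:35505782-35506081: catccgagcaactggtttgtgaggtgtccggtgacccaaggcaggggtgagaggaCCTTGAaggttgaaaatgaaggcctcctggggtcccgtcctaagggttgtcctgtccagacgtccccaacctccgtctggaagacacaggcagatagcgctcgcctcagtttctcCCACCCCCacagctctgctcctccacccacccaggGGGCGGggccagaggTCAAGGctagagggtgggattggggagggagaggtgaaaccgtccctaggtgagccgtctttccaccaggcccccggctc
Sox2, chr3:34649745-34650044: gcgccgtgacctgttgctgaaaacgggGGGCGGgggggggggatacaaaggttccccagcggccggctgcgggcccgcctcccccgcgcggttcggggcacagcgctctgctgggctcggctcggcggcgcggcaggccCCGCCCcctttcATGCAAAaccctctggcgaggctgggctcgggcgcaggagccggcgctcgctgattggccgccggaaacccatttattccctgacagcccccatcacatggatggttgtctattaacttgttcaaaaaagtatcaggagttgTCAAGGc
Nanog, chr6:122707239-122707538: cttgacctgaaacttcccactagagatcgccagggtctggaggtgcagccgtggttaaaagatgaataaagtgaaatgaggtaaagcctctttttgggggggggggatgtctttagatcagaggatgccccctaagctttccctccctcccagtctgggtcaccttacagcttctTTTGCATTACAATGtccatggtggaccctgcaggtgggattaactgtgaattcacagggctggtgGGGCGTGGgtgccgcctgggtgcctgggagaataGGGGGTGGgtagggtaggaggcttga
The Nanog promoter held the composite on the minus strand at bases -75 to -62 from the start. The first of its letters overlap the octamer core match at -75 to -69. Of 32817 RefSeq promoters of this length, 2 held that composite (0.00609%), and 4.63% held the octamer core. Its KLF matches at -10 to -3 and at 24 to 31 are a motif found in 17.6% of promoters. The Sox2 promoter held an octamer core at -99 to -93, an ESRRB half-site at 43 to 48 and GC boxes at -223 to -218 and at -111 to -106. The Pou5f1 promoter held ESRRB half-sites at -195 to -190 and at -30 to -25, a KLF match at -80 to -73 and a GC box at -45 to -40. ESRRB half-sites occurred in 14.4% and GC boxes in 35.6% of all promoters. None of the 3 promoters held the full octamer (ATGCAAAT, 1.74% of promoters), the full ESRRB site (TCAAGGTCA, 0.424%) or an AP-1 site (TGANTCA, 7.81%). These matches are a description of the letters in the window.

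Peaks reached these promoters at separate stages. The iPSC peak covered 276 of the 300 bases of the Pou5f1 promoter and the D12 peak 205, with none from D0 to D10. The iPSC peak covered 294 bases of the Nanog promoter, composite included, and no other list had a peak there. The Sox2 promoter was covered over 300 bases at D2, 236 at D4, 269 at D8 and 269 at D10, and by no iPSC peak.

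The pileup is the depth of reads at the summit of a peak, recovered as a whole number from the deposited fold and p-value, and it was put on a common footing in 2 ways. The level over background is the pileup divided by the lowest local background of its list. The relative level, added after seeing the data, is the pileup divided by the median pileup, in the same list, of the 8975 regions that had a peak in all 8 lists. Those medians were 44 at D0, 80 at D2, 30 at D4, 41 at D6, 34 at D8, 44 at D10, 13 at D12 and 43 in iPSC. A relative level of 1 therefore means as open as a typical constitutive region of that list. Over background the same medians were 19.4 to 26.0 at D0, D2, D4, D6 and in iPSC but 45.5 to 52.3 at D8, D10 and D12. The level over background therefore sets D8, D10 and D12 higher against the other lists than the relative level does, and orders that cross this divide are given on both. Between iPSC and D0 the scalings nearly coincide. Intervals are exact 95% Poisson intervals on the pileup and cover counting error only. The D12 list was the shallowest, with a background pileup of 0.248 against 0.682 to 3.08 elsewhere, and 31915 peaks against 40216 to 83022. A peak at background had to reach 12.1 times that background at D12, and 3.25 to 7.33 times in the other lists, to be called. Gaps in the D12 list are therefore weaker evidence than gaps elsewhere.

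At Pou5f1 the stretch just upstream of the gene became the most open of all regions in the 3 windows. The -1.2 kb region (chr17:35503637-35506057), which holds the known enhancer stretch and the promoter, had no peak from D0 to D6 (limits are given below). Its pileup was 27 at D8, 43 at D10, 72 at D12 and 866 in iPSC. The level over background was 39.6 (26.1 to 57.6) at D8, 44.4 (32.2 to 59.9) at D10, 290 (227 to 365) at D12 and 456 (426 to 488) in iPSC. The relative level was 0.79 (0.52 to 1.16) at D8, 0.98 (0.71 to 1.32) at D10, 5.54 (4.33 to 6.97) at D12 and 20.1 (18.8 to 21.5) in iPSC. On both scalings D8 and D10 overlapped within counting error, D12 lay above both, and iPSC above D12. The iPSC peak was in the top 0.03% of its list by score.

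The calls inside that region sat at different places. The D8 peak ran from -2.10 to -1.87 kb with its summit at -2.06 kb, and the D10 peak from -2.13 to -1.80 kb with its summit at -2.05 kb. At D12 there were 2 peaks, with summits at -1.93 kb and at -0.05 kb and pileups of 72 and 43, the second of them at the promoter. In iPSC a single peak ran from -2.40 to 0.02 kb with its summit at -1.38 kb. The upstream stretch, where the distal enhancer is known, thus had peaks in lists of earlier stages than the promoter did.

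**Figure D1:**
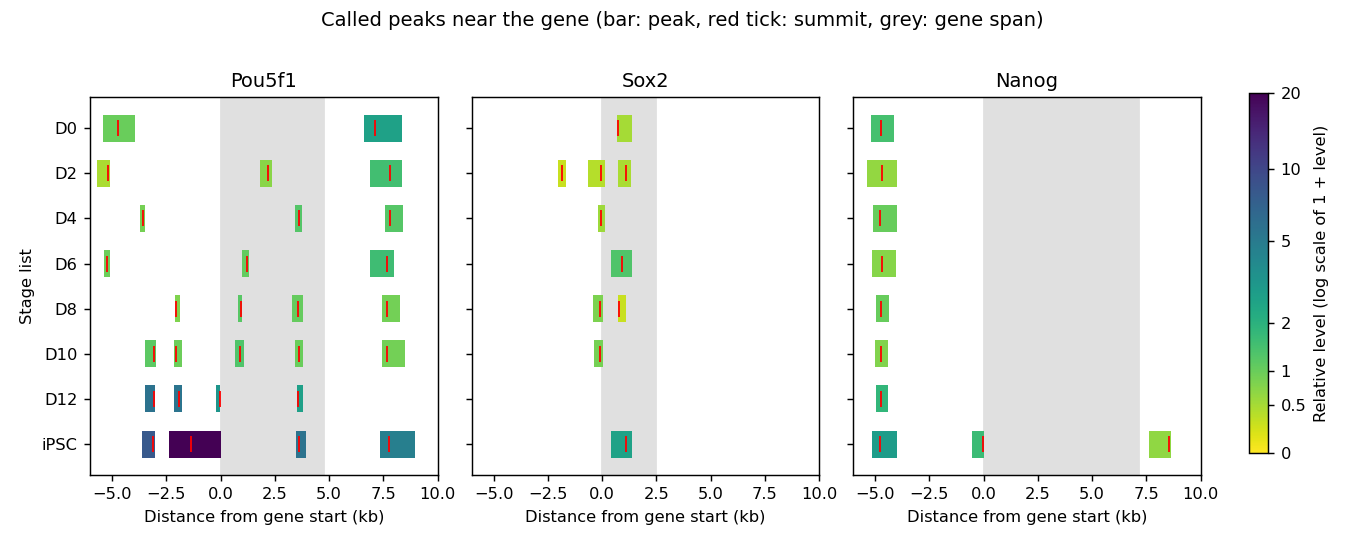
Called peaks of the 8 stage lists from 6 kb before to 10 kb after the start of Pou5f1, Sox2 and Nanog (x axis, kb from the gene start; y axis, stage). Bars are peaks coloured by relative level on a log scale, red ticks are summits and the grey band is the gene span; the iPSC peak at Pou5f1 (relative level 20.1) is the most open, and the Nanog start has a bar in iPSC alone. Over list background in place of the relative level, the D12 peak at -3.3 kb (298) is above that of iPSC (184).

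A second upstream region at -3.3 kb, within the long non-coding RNA gene Gm32362, had pileups of 27 at D4, 51 at D10, 74 at D12 and 349 in iPSC. The D4 peak was at its outer edge, with its summit at -3.58 kb, while the D10, D12 and iPSC summits lay between -3.13 and -3.08 kb. Over background the iPSC level of 184 (165 to 204) lay below the D12 level of 298 (234 to 374), and both lay above D10 (52.7) and D4 (22.0). As relative levels the order of iPSC and D12 was turned round, at 8.12 (7.29 to 9.01) in iPSC and 5.69 (4.47 to 7.15) at D12, with 1.16 at D10 and 0.90 at D4. Within the gene, the +3.6 kb region had pileups of 38 at D4, 36 at D8, 44 at D10, 36 at D12 and 239 in iPSC. Over background it was at 126 (110 to 143) in iPSC and 145 (101 to 201) at D12, which overlap, and as a relative level at 5.56 in iPSC and 2.77 at D12. The D4, D8 and D10 levels were 30.9 to 52.8 over background. Thus iPSC and D12 stood above the other lists at all 3 regions on both scalings, and which of these lists was higher depended on the scaling at -3.3 and +3.6 kb.

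Other calls in the gene body belonged to intermediates. The +1.0 kb region had pileups of 44 at D6, 41 at D8 and 58 at D10, with relative levels of 1.07 to 1.32, and the +2.1 kb region had a peak at D2 alone (pileup 58, relative level 0.72). Over background the +1.0 kb region was at 20.8 at D6, 60.1 at D8 and 59.9 at D10. The D0 list had no peak in the gene. Its nearest upstream peak was the -4.8 kb region, with pileups of 44 at D0, 38 at D2 and 40 at D6, and no peak in iPSC. These calls lay upstream of the stretch that was covered in iPSC.

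All calls near Pou5f1 were made against a raised local background, the read depth around the peak that the peak caller compares a summit with, which can hold reads of nearby peaks. Within 15 kb of the start it was 7.07 to 13.8 times the list background at D0, 5.03 to 9.94 times at D2 and 7.83 to 14.5 times over the D4, D6, D8 and D10 lists. It reached 46.6 times at D12, from a lowest value of 6.71, and 86.2 times in iPSC, from a lowest value of 24.4. Beyond 15 kb it did not pass 4.75 times in any list. Within 15 kb of Sox2 the highest value was 14.2 times, in iPSC, and the highest at D0 was 2.80 times. The only Nanog peak within 15 kb at D0 had 2.81 times the list background. The D0 fibroblasts, in which the gene is normally silent, thus had a higher local background around Pou5f1 than around Sox2 or Nanog. Reads of the OG2 transgene copies and of the endogenous gene cannot be told apart in these files, at any stage.

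This background sets what could be called there. At the local background of the iPSC peaks from -3.3 to +3.6 kb a summit needed a pileup of 127 to 206 to pass, against 27 to 45 at the D0 peaks. An iPSC peak with the relative level of the D10 summit at +1.0 kb (pileup 58, relative level 1.32) would not have passed there. The smallest passing relative level at those iPSC peaks was 2.95 to 4.79. By list background, which was 0.968 at D10 and 1.90 in iPSC, the margin is narrower. The nearest D0-only regions were each set against the nearest iPSC peak. Their D0 summits, brought to iPSC depth, would have pileups of 42.7 to 43.0 at -4.8 kb and of 66.0 to 66.5 at +11.0 kb. The smallest pileup that passes was 195 at the iPSC peak nearest to -4.8 kb and 70 at the one nearest to +11.0 kb. The missing iPSC calls at -4.8 and +1.0 kb are therefore no evidence that the DNA was closed. For +11.0 kb the limit of 70 is borrowed from the +7.8 kb peak. In each list with both peaks the local background was lower at +11.0 kb, and at D0 the smallest passing pileup was 38 against 45. A D0-like summit at +11.0 kb might therefore have passed in iPSC, and the missing call there was not settled. Early lists had a limit too. At their peaks within 15 kb the smallest passing relative level was 0.61 to 1.02 at D0 and 0.36 to 0.61 at D2. It was 0.73 to 0.87 at D4 and 0.78 to 1.00 at D6. The -1.2 kb region had 0.79 at D8 and 0.98 at D10. A site with the D8 relative level might thus have gone uncalled at D0, D4 or D6. Its missing calls in those lists are not read as closed DNA.

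**Figure D2:**
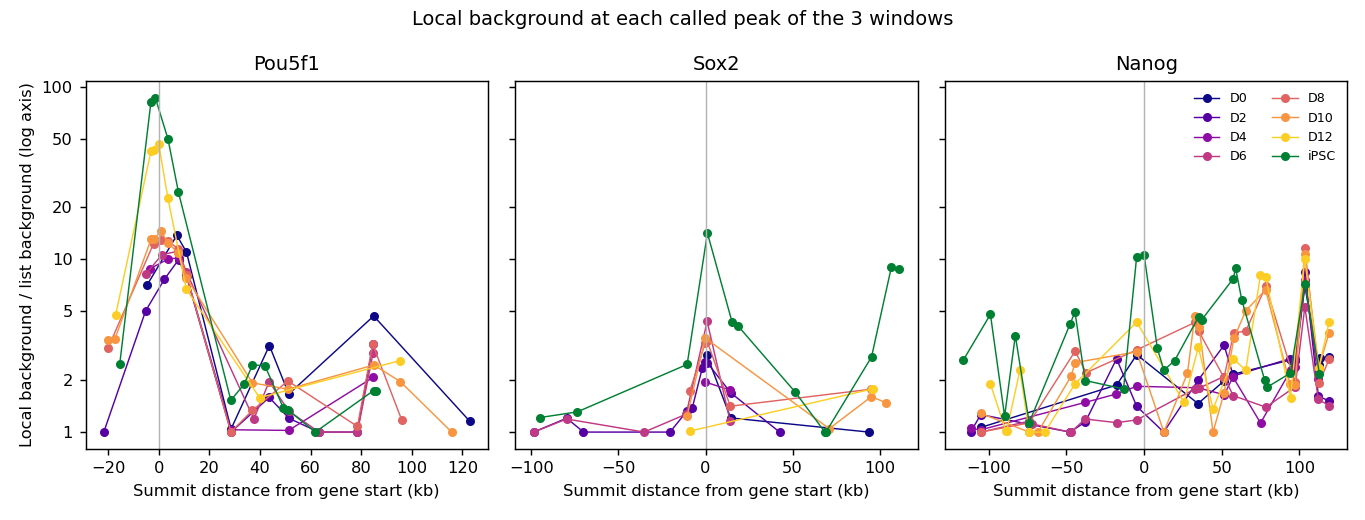
Local background over list background (y axis, log scale) at every called peak of the 3 windows against the distance of its summit from the gene start (x axis, kb), 1 line per stage list. All 8 lists are raised near Pou5f1, from 5.03 times upward within 15 kb, with iPSC at up to 86.2 times, while D0 stays at 2.81 times or less near Sox2 and Nanog.

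Downstream, Pou5f1 borders Tcf19, a gene expressed in growing cells, and Cchcr1. The +7.8 kb region in Tcf19 had pileups of 117 at D0, 120 at D2, 37 at D4, 65 at D6, 31 at D8, 40 at D10 and 203 in iPSC, and none was called at D12. Its relative level in iPSC was 4.72, against 2.66 at D0, a ratio of 1.78 (1.41 to 2.25). The +11.0 kb region, where Tcf19 and Cchcr1 meet, was covered in all lists except iPSC, at relative levels of 1.11 to 1.95. Whether the missing iPSC call reflects the limit given above was not settled. Farther out, the +85.3 kb region was more open in fibroblasts, with a relative level of 0.42 in iPSC against 1.95 at D0, a ratio of 0.21 (0.12 to 0.36). The +51.3 kb region in Cdsn, a gene of skin cell adhesion, went the same way, with a ratio of 0.36 (0.18 to 0.69). The +28.6 kb region in Psors1c2 had a ratio of 1.02, with an interval of 0.40 to 2.60 that reaches to either side of equality. The other D0 peaks were the +43.7 kb region in Cdsn, also covered at D2 and D6, and the +122.7 kb region, covered at D0 alone.

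The other side of the Pou5f1 window was empty over most of its length. From -120 to -21.8 kb, a stretch of 98.2 kb that holds histocompatibility genes of the H2-Q cluster, no list had a peak. These genes are near-copies of each other, and whether reads could be placed there was not tested. The empty stretch therefore gives no level.

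At Sox2 the promoter had called peaks in intermediates alone, and the gene body had its highest level in iPSC. The -0.3 kb region (chr3:34649334-34650134), which covers the start, had pileups of 32 at D2, 17 at D4, 28 at D8 and 39 at D10. Over background it was at 10.4 at D2, 13.8 at D4, 41.0 at D8 and 40.3 at D10, and its relative level was 0.40, 0.57, 0.82 and 0.89 in that order, with no peak at D0, D6, D12 or in iPSC. The +0.9 kb region (chr3:34650415-34651372), inside the single exon of the gene, had pileups of 22 at D0, 38 at D2, 54 at D6, 10 at D8 and 114 in iPSC. Relative levels were 0.50, 0.48, 1.32, 0.29 and 2.65 in that order, and levels over background 11.2, 12.3, 25.5, 14.7 and 60.1. The iPSC relative level was 5.30 times that at D0 (3.34 to 8.79), and iPSC was above every other list on both scalings. The iPSC call at Sox2 thus began 0.42 kb inside the gene, while the D8 and D10 calls at the start ended at 0.02 kb. The local background was 14.2 times that of the list at the iPSC peak at +0.9 kb, against 3.49 times at the D10 peak at the start. Whether an iPSC summit like those of D8 and D10 would have passed at the start was not tested. The missing iPSC call there is therefore not read as a closed start.

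Of the 24 Sox2 regions outside the gene, 11 had an iPSC peak, 12 were intermediate-only and 1 was D0-only. The +95.4 kb region (chr3:34745033-34745780) had pileups of 13 at D8, 22 at D10, 10 at D12 and 66 in iPSC, and no earlier peak. Its relative level was 0.38, 0.50, 0.77 and 1.53 in that order, and over background it was at 19.1, 22.7, 40.2 and 34.8. The iPSC and D12 intervals overlapped on both scalings. The +107.4 kb and +111.0 kb regions, in the stretch known as the Sox2 control region, had peaks in iPSC alone, with pileups of 56 and 65 and relative levels of 1.30 and 1.51. Scaled by list background to the depth of D8 or D10 both iPSC peaks would still have been called, and at that of D12 only the second. Peaks of that size over background were thus within reach of the D8 and D10 lists and were not called there. A D10 peak at +103.7 kb (relative level 0.41) was the only call of an intermediate past +96.4 kb.

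Closer in, the +18.5 kb region within the non-coding gene Sox2ot, which spans Sox2, was called in iPSC alone with a pileup of 50 and a relative level of 1.16. The +14.6 kb region was covered in 6 lists, all but D10 and D12, at a relative level of 0.63 in iPSC against 0.25 at D0, a ratio of 2.51 (1.21 to 5.61). The iPSC summit lay at 15.30 kb, against 14.10 to 14.44 kb in the other lists. The D0 peak overlapped the iPSC peak, but the D6 and D8 peaks did not. That ratio thus compares neighbouring summits. The -74.0 kb region was called in iPSC alone with a pileup of 22. The D0 list had 3 peaks in the whole Sox2 window, at +0.9, +14.6 and +93.9 kb. At D2, the deepest list, 11 Sox2 regions were covered (42.3%, against 49.9% of all regions), and 5 of these were in no other list. Those 5, at -70.1, -20.1, -7.5, -1.9 and +42.5 kb, would not have been called at D8 depth. The share in the D2 list alone was not computed over all regions.

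At Nanog the promoter peak appeared in the iPSC list alone, while an upstream region was open at every stage. The -0.2 kb region (chr6:122706968-122707532) had a pileup of 71 in iPSC and a relative level of 1.65 (1.29 to 2.08). Scaled by list background to the depth of D8 or D10 that peak would still have been called, but not at the depth of D12. The -4.7 kb region (chr6:122702132-122703516) had pileups of 64 at D0, 51 at D2, 31 at D4, 30 at D6, 35 at D8, 34 at D10, 24 at D12 and 127 in iPSC. Its summits lay between -4.77 and -4.68 kb in all 8 lists. Its relative level was 1.45 at D0, 0.64 at D2, 1.03 at D4, 0.73 at D6, 1.03 at D8, 0.77 at D10, 1.85 (1.18 to 2.75) at D12 and 2.95 (2.46 to 3.51) in iPSC. Over background it was at 66.9 (55.8 to 79.6) in iPSC, 96.6 (61.9 to 144) at D12, 51.3 at D8 and 32.7 at D0. The iPSC relative level was 2.03 times that at D0 (1.49 to 2.79), and the iPSC and D12 intervals overlapped on both scalings.

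The -44.1 kb region (chr6:122662801-122663958) first had a peak at D8. Its pileups were 21 at D8, 26 at D10, 8 at D12 and 64 in iPSC. The relative level was 0.62 (0.38 to 0.94) at D8, 0.59 (0.39 to 0.87) at D10, 0.62 (0.27 to 1.21) at D12 and 1.49 (1.15 to 1.90) in iPSC. Over background it was at 30.8 (19.1 to 47.1) at D8, 26.9 (17.6 to 39.4) at D10, 32.2 at D12 and 33.7 (26.0 to 43.0) in iPSC. The 3 intermediates overlapped within counting error on both scalings, and iPSC lay above D8 and D10 as a relative level but overlapped them over background. The -73.9 kb region was covered from D2 on, except at D4, at a relative level of 0.63 in iPSC and 0.47 at D8, the highest intermediate, but at 14.2 in iPSC and 23.5 at D8 over background. The -37.5 kb region was covered at D2, D4, D6, D8 and in iPSC, at relative levels of 0.24 to 0.51. The +8.2 kb region, 491 bp past the end of the gene, was called in iPSC alone with a pileup of 28.

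Upstream neighbours of Nanog include Apobec1, an RNA-editing enzyme, Gdf3, a TGF-beta family ligand of early embryos, and Dppa3, a maternal factor that protects methylation marks. The -98.5 kb region in Gdf3 had pileups of 60 in iPSC and 8 at D12, and no other peak. The -82.8 kb region, 1363 bp from Dppa3, was called in iPSC alone with a pileup of 63 and a relative level of 1.47, whereas the -79.9 kb region in Dppa3 was called at D12 alone. The -116.2 kb region in Apobec1 was called in iPSC alone with a pileup of 48, and the -105.1 kb region in the same gene was covered at D0, D2, D4, D6, D8 and D10 but not at D12 or in iPSC. Fibroblast calls and iPSC calls thus lay side by side within Apobec1.

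Downstream, within the RefSeq span of the glucose transporter gene Slc2a3, the +57.4 kb region was covered in all 8 lists and the adjoining +59.0 and +63.1 kb regions in iPSC alone, with pileups of 57 and 58. The +57.4 kb region had a relative level of 1.44 in iPSC, 2.35 times that at D0 (1.47 to 3.84). Against D8, D10 and D12 it was higher in iPSC as a relative level (0.54 to 0.73 in those lists) but alike over background, at 32.7 in iPSC and 28.2 to 33.1 in those lists. In the +35.2 kb region the relative level of the iPSC peak was 2.70 times that of the D0 peak (1.43 to 5.42). The D0 peak ran from 34.54 to 34.82 kb and the iPSC peak from 35.00 to 35.99 kb. They share no base and were joined by peaks of other lists, so that ratio compares neighbouring sites. The +37.4 kb region was covered in iPSC alone.

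Some downstream Nanog regions were most open in late intermediates. The +78.3 kb region had pileups of 18 at D6, 38 at D8, 46 at D10, 20 at D12 and 16 in iPSC. Its relative level was 0.44 (0.26 to 0.69) at D6, 1.12 (0.79 to 1.53) at D8, 1.05 (0.77 to 1.39) at D10, 1.54 (0.94 to 2.38) at D12 and 0.37 (0.21 to 0.60) in iPSC. Over background it was at 8.50 at D6, 55.7 at D8, 47.5 at D10, 80.5 at D12 and 8.43 in iPSC. The iPSC interval lay below those of D8, D10 and D12 on both scalings. The +65.5 kb region was called at D8, D10 and D12 alone, with pileups of 35, 49 and 8 and relative levels of 1.03, 1.11 and 0.62.

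Regions of the fibroblast list at Nanog lost their calls at different stages. The -17.7 kb region had pileups of 42 at D0, 105 at D2, 21 at D4 and 30 at D6, and no peak from D8 on. The +51.5 kb region had 51 at D0, 125 at D2, 20 at D4, 55 at D6, 20 at D8 and 18 at D10, and no peak at D12 or in iPSC. The +97.2 kb region was covered through D10 at relative levels of 0.32 to 1.24. The +119.1 kb region in Foxj2 was covered from D0 to D12 except at D4, at a relative level of 1.15 at D12 against 0.50 at D0, and had no iPSC peak. The +103.7 kb region, near the outer end of the window, had like relative levels throughout. They were between 2.08 and 3.10 in all 8 lists, with an iPSC over D0 ratio of 0.97 (0.75 to 1.26). Over background the iPSC level was 0.57 times that at D12 (0.37 to 0.90), against 1.31 times as a relative level. The levels were thus alike throughout as relative levels only. The +112.6 kb region in Foxj2 had a ratio of 1.36 (0.75 to 2.53), and the +94.2 kb region a ratio of 1.10 (0.63 to 1.93).

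**Figure D3:**
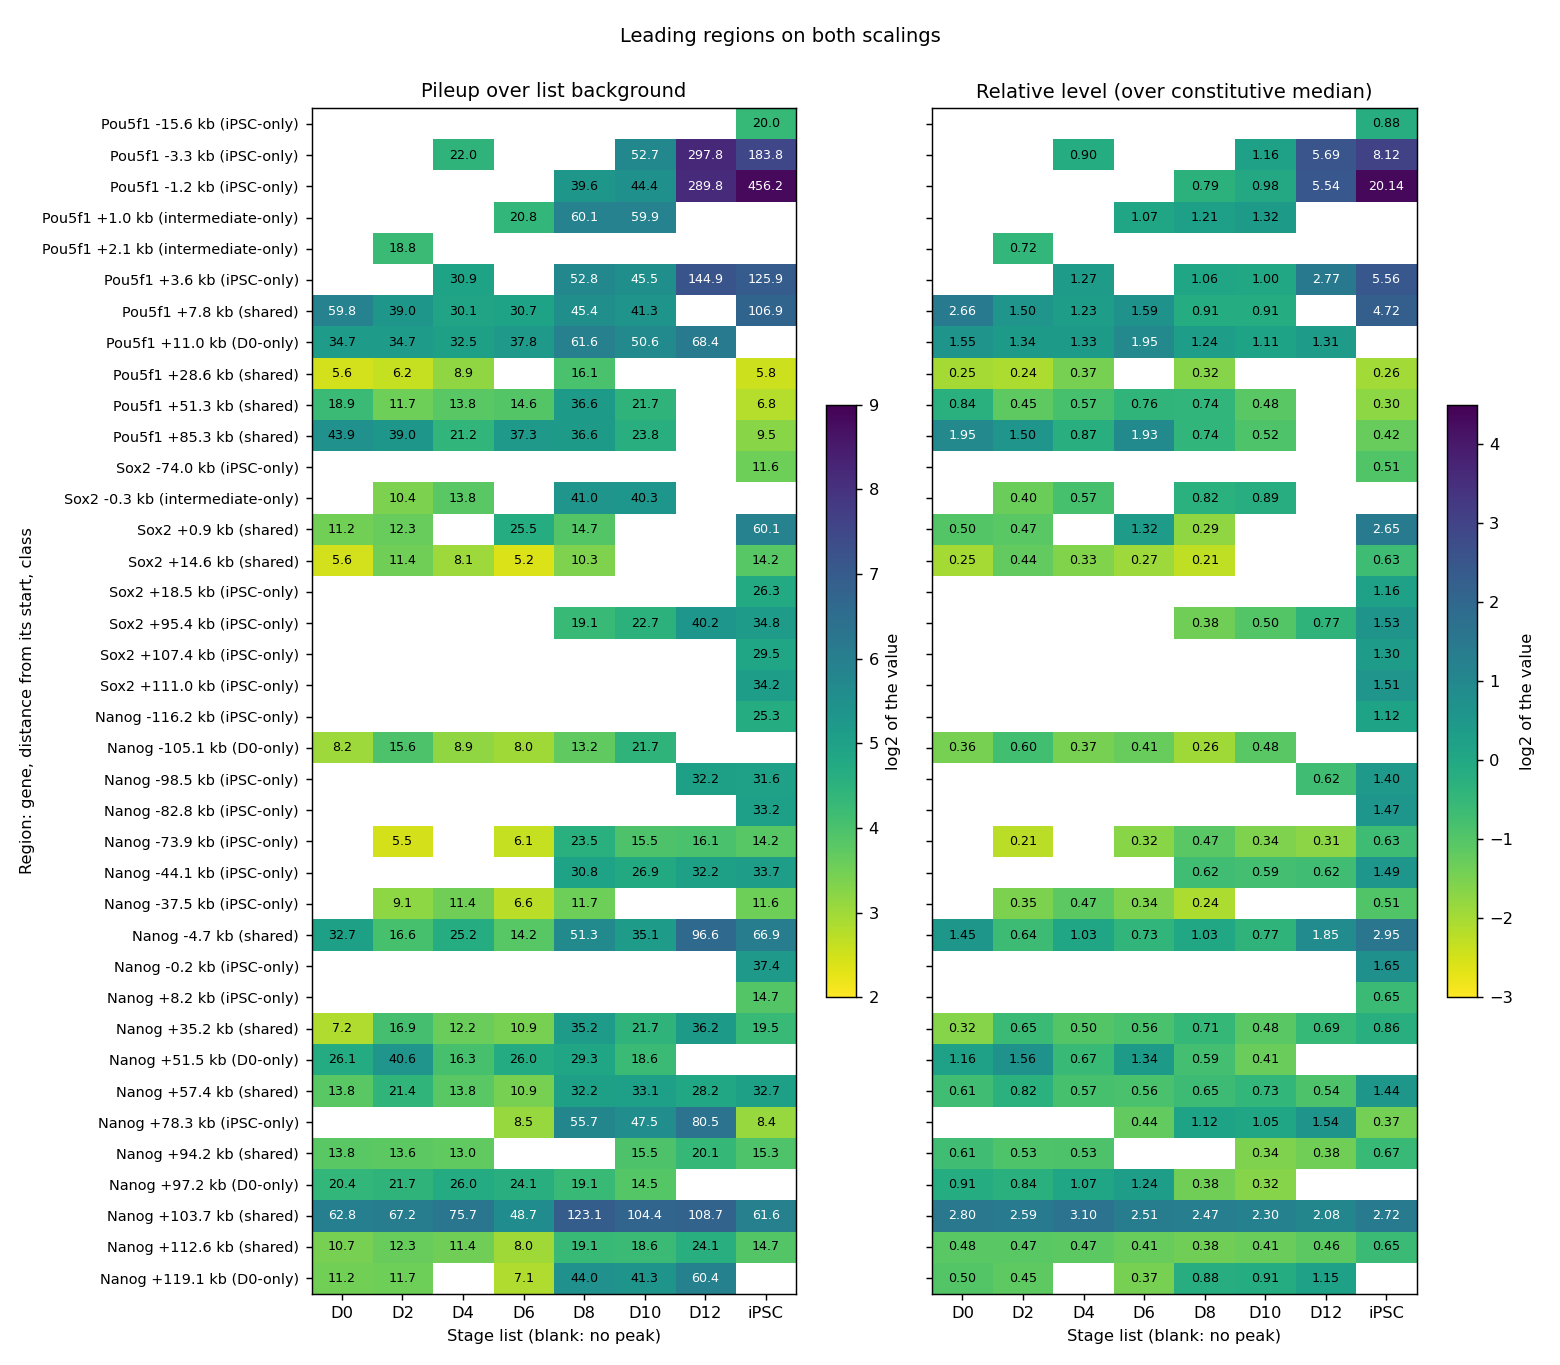
Pileup over list background (left) and relative level (right) of the regions described in full except those covered in D0 and fewer than 5 lists, by stage list (columns); colour is on a log2 scale, values are printed in the cells, each row is a region named by gene, distance from its start and class, and a blank cell means no peak. The highest cell of both panels is the Pou5f1 region at -1.2 kb in iPSC, and at -3.3 kb the higher of iPSC and D12 differs between the panels.

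Counted over the 3 windows, 36 of 94 regions (38.3%) were iPSC-only, that is covered in iPSC and not at D0, against 19.4% of all regions. D0-only regions were 10 of 94, against 19.3% of all regions. Regions shared by iPSC and D0 were 12 of 94, against 10.2%, and intermediate-only regions were 36 of 94, against 51.1%. Shared means that both lists had a peak in the merged region, and at Nanog +35.2 kb these peaks do not overlap. Pou5f1 had 9 iPSC-only, 4 D0-only, 4 shared and 10 intermediate-only regions. Sox2 had 10, 1, 2 and 13 in the same order, and Nanog 17, 5, 6 and 13. At each gene iPSC-only regions outnumbered D0-only ones, whereas the whole series had nearly as many of each. The -4.8 kb region, with the limit on iPSC calls given above, and the +11.0 kb region, where it was not settled, are 2 of the 4 D0-only regions at Pou5f1. With every list scaled to the D12 background, the shared class was 5.66% of the regions left, against 12.8% as deposited, and the iPSC-only share at Nanog 25.9%, against 41.5%.

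With the share over all regions of the series in parentheses, the regions covered were 22 of 94 at D0 (29.4%), 38 at D2 (49.9%), 22 at D4 (24.4%), 32 at D6 (33.5%), 32 at D8 (23.5%), 38 at D10 (25.7%), 29 at D12 (18.8%) and 48 in iPSC (29.6%). As shares of the 94 these counts were 23.4% at D0, 40.4% at D2, 23.4% at D4, 34.0% at D6, 34.0% at D8, 40.4% at D10, 30.9% at D12 and 51.1% in iPSC. As deposited, the shares of D0 and D2 were below those of all regions, D4 and D6 were close to them, and D8, D10, D12 and iPSC were above. The shares themselves moved by over 1.5 times with the processing. With lists cut to the shortest D2 stood at 17.4%, and at D12 background D2 stood at 20.8%, D4 at 15.1%, D6 at 17.0%, D12 at 54.7% and iPSC at 34.0%. In 200 bp bins D12 stood at 18.2%. The shares of all regions were not recomputed under these settings.

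By pattern, 23 regions were in the iPSC list alone (24.5% of 94, against 13.0% of all regions). Within the iPSC-only class that is 63.9% of 36, against 67.0% over the series. Those covered in iPSC and first covered at D8, D10 or D12 were 4 (4.26% of 94, against 2.87% of all regions), namely Pou5f1 -1.2, Sox2 +95.4, Nanog -44.1 and Nanog -98.5 kb. Within the iPSC-only class they were 11.1%, against 14.8% over the series. The limit on calls at D0, D4 and D6 given above applies to Pou5f1 -1.2 kb. The other 9 iPSC-only regions had a peak between D2 and D6, a pattern whose share over all regions was not computed. Regions covered in all 8 lists were 5, all at Nanog, near the background of 5.42%. Regions in 1 list alone were 46, near the background of 52.0%. Intermediate-only regions confined to D8, D10 and D12 were 18 (19.1% of 94, against 20.3% of all regions), and those confined to D2, D4 and D6 were 13 (13.8% of 94, against 27.8%). Within the intermediate-only class these were 50% and 36.1%, against 39.7% and 54.3% over the series.

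**Figure D4:**
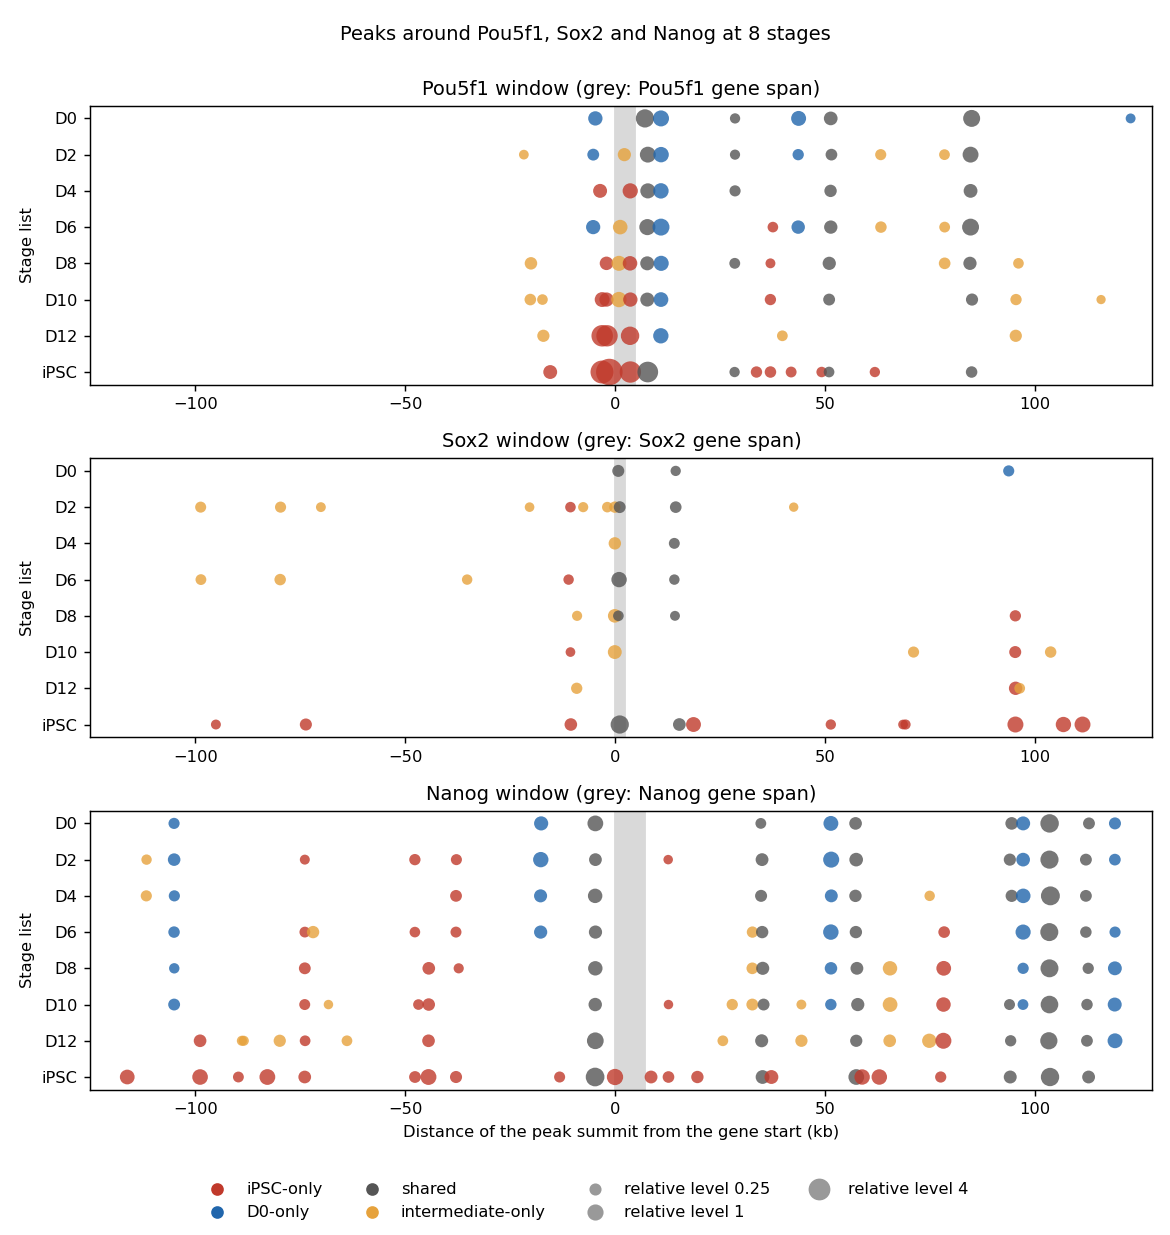
Summits of all covered regions in the 3 windows by distance from the gene start (x axis, kb) and stage list (y axis); point area grows with the log of the relative level and colour gives the class. Of the regions with an iPSC peak, 4 of 13 at Pou5f1, 3 of 12 at Sox2 and 5 of 23 at Nanog lie within 15 kb of the gene start, and the left part of the Pou5f1 window is empty in all 8 lists.

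Depth was allowed for by list background alone. It was asked which iPSC peaks would still be called if their pileup and local background were scaled to that of another list. The counts were not made on the scale of the relative level, on which more iPSC peaks could pass at D8, D10 and D12. Of the 48 regions with an iPSC peak, 48 would have passed at D0 depth, and 12 of those were covered at D0. At D2 and D6 all 48 would have passed, with 17 and 16 covered. At D4 42 would have passed and 13 were covered, at D8 34 and 14, at D10 42 and 19, and at D12 18 and 10. Of the regions whose iPSC peak would not have passed, 1 of 6 was covered at D4, 5 of 14 at D8, 1 of 6 at D10 and 4 of 30 at D12, so that a failed scaling does not mean that the list could hold no peak there. The counts by gene are for regions whose iPSC peak would have passed. At D10, 7 of 11 were covered at Pou5f1, 2 of 9 at Sox2 and 10 of 22 at Nanog. At D12 the numbers were 3 of 5, 1 of 4 and 6 of 9.

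**Figure D5:**
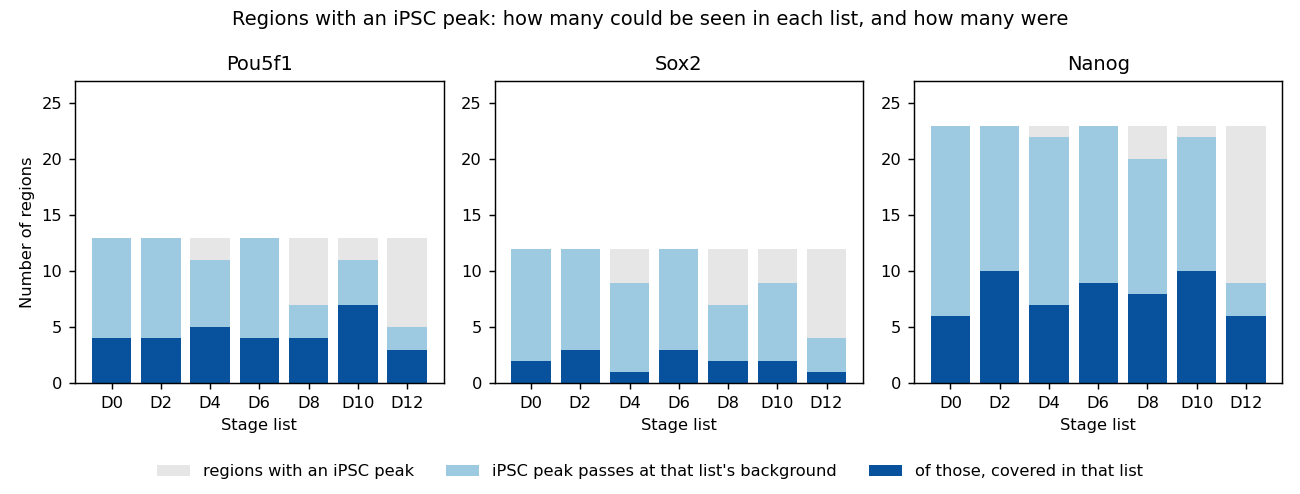
Regions with an iPSC peak in each window (grey bars, y axis, number of regions), those whose iPSC peak would pass at the background of each stage list (light blue) and those of them that were covered in that list (dark blue), by stage (x axis). At D12 the iPSC peak would pass at 18 of the 48 regions, of which 10 were covered; a further 4 covered at D12 are among the 30 that would not pass and are not in the dark bars.

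The same rule around Esrrb, Nr5a2 and Tfcp2l1, transcription factors of the naive state, gave 101 regions, of which 44 were iPSC-only, 5 D0-only, 6 shared and 46 intermediate-only. There, 11 regions were covered at D0, 25 at D8, 24 at D10, 21 at D12 and 50 in iPSC. As shares these were 10.9%, 24.8%, 23.8%, 20.8% and 49.5%. Over all regions they were 29.4%, 23.5%, 25.7%, 18.8% and 29.6%, so that D8, D10 and D12 lay near the background. Regions covered in iPSC and first covered at D8, D10 or D12 were 4 of 94 at Pou5f1, Sox2 and Nanog, against 8 of 101 at these 3 genes. Those are 4.26% and 7.92%, with 2.87% over all regions. These counts are a description and the difference was not tested.

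Partners and targets of the 3 factors were read by whether a peak lay within 1 kb of a gene end. A covered end was found for 55.0% of all 21883 protein-coding genes at D0, 62.2% at D2, 51.6% at D4, 54.5% at D6, 55.2% at D8, 56.4% at D10, 44.3% at D12 and 58.6% in iPSC. With these shares repeated in parentheses, 6 of 21 such genes had a covered end at D0 (55.0%), 11 at D10 (56.4%), 11 at D12 (44.3%) and 14 in iPSC (58.6%). As shares of the list these were 28.6% at D0, 52.4% at D10 and at D12 and 66.7% in iPSC, so that the list lay below all genes at D0, near them at D10 and above them at D12 and in iPSC. Zfp42 (REX1), a marker of naive cells, was covered at D8, D10, D12 and in iPSC. Nr0b1 (DAX1), which binds OCT4, was covered at D10, D12 and in iPSC, and Lefty1, a Nodal antagonist, at D12 and in iPSC. Dppa4, Gdf3 and Otx2 were covered in iPSC alone, and Nr5a2, which can drive Pou5f1, at D8, D10 and D12 but not in iPSC. Klf4, a reprogramming factor also expressed in fibroblasts, was covered at D0, D2, D6, D8, D10 and D12 and not in iPSC. Klf2, Klf5 and Tbx3 were covered in all 8 lists. Esrrb, Fgf4, Lin28a and Foxd3 had no covered end in any list.

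Markers of other cells moved with the lists. The shares of all genes above are the background for these counts. Of 10 fibroblast genes a covered end was found for 8 at D0, 10 at D2, 9 at D4, 10 at D6, 6 at D8, 6 at D10, 2 at D12 and 8 in iPSC. Thy1, Col1a1 and Prrx1 were among those covered in iPSC, and the part of feeder or fibroblast chromatin in the shared regions was not tested. All 6 spermatid genes had a covered end at D0, and 0 of 6 in each other list. Regions of the 3 windows in the D0 list alone were 2 (2.13% of 94, against 5.55% of all regions), Pou5f1 +122.7 and Sox2 +93.9 kb, at relative levels of 0.20 and 0.36, and the part of other cells in them was not tested. Of 6 germ cell genes, 6 were covered in iPSC and 3 at D0. Of 6 trophoblast and endoderm genes, 5 were covered in iPSC, 5 at D10, 1 at D12 and 1 at D0. Of 8 pluripotent markers 6 were covered in iPSC and 1 at D0. Nanog is itself on that list, and without it 5 of 7 were covered in iPSC and 1 of 7 at D0. A pileup in a mixed population cannot tell fewer open cells from less open chromatin per cell.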

How the data were processed

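ATAC-seq was made from 16 samples of 8 stages. The build is mm10 and the tools named are MACS2 2.1.2, deepTools 3.4.3, fastp 0.20.1, Bowtie2 2.2.5 and SAMtools, per the submitters' processing notes. No source used here states a Tn5 shift, a duplicate rule or how both samples of a stage became 1 list. The authors deposited 1 narrow peak list per stage, with a score, a fold enrichment (a ratio of summit pileup to local background) and a -log10 p-value per peak. These values are the authors'. Their fold is (pileup + 1)/(local background + 1) and their -log10 p an upper Poisson tail, so both unknowns were solved for each peak, with at least 99.998% of peaks matched within 0.001 in -log10 p and the solver tested on simulated data. Peaks on the autosomes, X and Y were merged at 1 bp overlap into 165616 regions. A list covers a region if any of its peaks overlaps it by at least 1 bp. Where several peaks of a list fell in a region, the one with the highest pileup gave its values.

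The regions described in full overlap a member or lie within 1 kb of it, have 1 of the 6 highest iPSC scores of a window, are covered at D0 or in at least 5 lists. The members, lists and rules were chosen with earlier results of these data known. Levels over list background were the planned measure, and relative levels were added after seeing the data. Alternatives were other depths, list lengths, overlaps, windows and bins, and leaving out a list. Python 3.11.15, NumPy 2.4.6, SciPy 1.17.1 and pandas 2.3.3 were used.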

Additional observations from a re-analysis of the deposited data

How the results depend on the processing

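Shares of the 94 regions by class and by list kept within their 95% binomial interval when each list was scaled to the D8 background, or cut to its better-scored part, in 50 kb windows, without the D2 list, and, as alternatives chosen after seeing the data, without the D12 list and without 15 kb around Pou5f1. Those intervals treat regions as independent draws, which neighbours within a window are not. They serve as a yardstick alone. Scaling all lists to the shallow D12 background left 53 regions and moved most shares: iPSC-only to 28.3%, shared to 5.66%, intermediate-only to 54.7%, covered in D2 to 20.8%, in D4 to 15.1%, in D6 to 17.0%, in D8 to 47.2%, in D12 to 54.7%, in iPSC to 34.0%, and the iPSC-only share of the Nanog window to 25.9%, against 41.5% as deposited. Cutting each list to the length of the shortest gave 17.4% covered in D2, 23.2% in D6 and 42.0% in D12. Bins of 200 bp in place of merged regions gave 23.2% in D8 and 18.2% in D12. Fewer peaks pass at D12 depth by construction. Asking that 50% of a region or peak overlap could change no share, since each peak lies within the region it formed. The ratio of iPSC to D12 summit level over background was turned round by dividing by the median of constitutive regions, added after seeing the data, at 10 of 14 regions. At Pou5f1 it became 1.43 at -3.3 kb and 2.01 at +3.6 kb, at Sox2 2.00 at +95.4 kb, and at Nanog 2.27 at -98.5, 2.04 at -73.9, 1.60 at -4.7, 1.24 at +35.2, 1.75 at +94.2, 1.31 at +103.7 and 1.41 at +112.6 kb. Among those 10, only Pou5f1 -3.3 kb (0.62, 0.48 to 0.80) and Nanog +103.7 kb (0.57, 0.37 to 0.90) had an interval over background that excluded equality. The ratio kept its direction at Pou5f1 -1.2 kb (3.64, against 1.57 over background) and Nanog +78.3 kb (0.24, against 0.10), and at Nanog -44.1 and +57.4 kb. The cause of the higher constitutive levels at D8, D10 and D12 was not tested. No paired analysis was possible because the deposited lists hold 1 column of values per stage and no result comes from a test. Depth limits what can be said of regions without a peak at D12.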

Other observations

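Of the 14 protein-coding neighbours of the 3 genes, Foxj2 and Tcf19 had a covered end in all 8 lists, and H2-Q6, H2-Q7, H2-Q10 and Gm9573 in none. Cdsn and Apobec1 had a covered end in all lists but D12. Cchcr1, which lies beyond Tcf19 from Pou5f1, had a covered end in every list but iPSC. Within single lists, where both scalings give the same order, the iPSC median relative level of covered regions was 0.42 at Pou5f1, 0.62 at Sox2 and 0.86 at Nanog, against 0.49 over the whole list. At D0 the medians were 1.09 at Pou5f1, 0.36 at Sox2 and 0.61 at Nanog, against 0.52 over the whole list. The Pou5f1 window thus held the highest single iPSC level and the lowest iPSC median of the 3 windows.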
